A study of Mus musculus with 48 samples.

Results

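The Hox genes of the Hoxa, Hoxb, Hoxc and Hoxd clusters were read in fibroblast lines of mouse embryos with and without Zfp36. A gene was taken as a member where a probe set carried its symbol alone in the platform annotation, and the brightest such probe set by mean log2 signal stood for it. This gave 33 genes of the 39 Hox genes in the RefSeq table, out of 18193 genes with such a probe set in the whole series.

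Hox genes encode homeodomain transcription factors that lie in clusters, and their order along a cluster follows the order of their expression along the body axis, from the head end for low numbers to the tail end for high numbers. Genes of the same number in different clusters are paralogs. Fibroblasts keep part of the Hox pattern of the body region they came from, so Hox genes are known as positional marks of cultured fibroblasts. Hox proteins bind DNA together with homeodomain cofactors of the TALE class (Pbx, Meis and Pknox proteins), Polycomb complexes hold silent Hox genes off, MLL complexes keep active ones on, and retinoic acid switches on genes at the low-numbered end.

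The WT line was Zfp36 +/+ and the KO line Zfp36 -/-, where Zfp36 encodes TTP (tristetraprolin), which attaches to AU-rich stretches of mRNA and speeds their decay. Both came from littermates of TTP +/- parents of the 129/B6 strain at E14.5 (embryonic day), from whole embryos without head and organs, and by the labels there was apparently 1 line of each genotype. Genotype, embryo, the region sampled and the history of each line therefore cannot be told apart in any line difference. All groups spent 16 h in 0.5% serum and 90 min in 10% serum, and were then sampled at 0, 30, 60, 90 or 120 min of actinomycin D, which stops transcription. The dose of actinomycin D reads 5 ug/ml in one label and 0.5 ug/ml in another. There were 5 experiments on separate days with both lines side by side, giving 25 WT and 23 KO arrays. The 10 groups of line and time held 5 arrays each, except KO at 0 min and KO at 60 min, which held 4. Each sample pooled 3 dishes. In such bulk samples fewer cells of a type and less RNA per cell cannot be told apart.

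The values were log2 signals of probe sets on Affymetrix Mouse Genome 2.0 arrays, as the labels name them. Array medians lay between 8.47 and 8.56 and the 5th percentiles between 8.02 and 8.13, so a value near 8 carries little or no signal and differences close to it are compressed. The Zfp36 probe set read 9.86 ± 0.16 (SD, n = 5) in WT and 9.51 ± 0.16 (SD, n = 4) in KO at 0 min, a difference of -0.35 (SE 0.09, limma adjusted p = 0.00245). This probe set does not check the genotype, because the labels do not place it inside or outside the disruption. Of 16 fibroblast markers 13 were above the array median in all 48 arrays, and Thy1 was above it in 0. The mean log2 signal of the marker list lay between 10.89 and 11.06 in WT arrays and between 10.81 and 11.01 in KO arrays. Markers of epithelial, muscle, endothelial, blood, neural and cartilage or bone cells had list means between 8.24 and 8.98 in every array, and their members went both ways. Pecam1, Kdr, Tek, Myod1, Myog, Sox10, Dcx and Adgre1 were above the median in 0 arrays. Map2 (10.31 in WT on average), Tubb3, Sox2, Acta1, Actc1, Csf1r, Cd14, Ibsp and Sox9 (9.88 in WT) were above it in all 48, Col2a1 in 47, Myf5 in 46, Cdh1 in 42, Tie1 in 36 and Ptprc in 35. In KO minus WT averaged over the 5 times, 6 fibroblast markers of 15 tested were higher and 7 lower, against 27.3% and 25.6% of all probe sets, among them Pdgfra (1.30), Postn (-1.87) and Fbln1 (-1.15). Of the other cell types' markers, Tubb3 (0.85), Cd14 (0.21), Tnnt1 (0.19) and Cd68 (0.08) were higher in KO, and Map2 (-0.21), Actc1 (-0.15), Sox9 (-0.14), Col2a1 (-0.09), Vwf (-0.08), Krt5 (-0.08), Col9a1 (-0.07), Krt18 (-0.05) and Epcam (-0.04) lower. Some were tested, with at least 4 arrays above the median, only through the line where they were high. Tnnt1 had 3 WT and 17 KO arrays above it, Vwf 11 and 2, and Col9a1 6 and 2. The fibroblast marker Lum, called higher, had 2 and 22. The part of such differences between the lines in the Hox results was not tested.

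The results below turn on Hoxa7 and Hoxa2, which were lower in the KO line, and Hoxa5, which fell during actinomycin D, so their promoters are shown. The windows of 300 bases around the start, most of them before it, come from RefSeq (GRCm38.p6), all on the minus strand: Hoxa7 at chr6:52218524-52218823, Hoxa2 at chr6:52164782-52165081 and Hoxa5 at chr6:52204538-52204837. Capitals mark a CCAAT box (CCAAT) or, in Hoxa2, also a composite Pbx-Hox sequence (TGATNNAT), searched on both strands.
Hoxa7: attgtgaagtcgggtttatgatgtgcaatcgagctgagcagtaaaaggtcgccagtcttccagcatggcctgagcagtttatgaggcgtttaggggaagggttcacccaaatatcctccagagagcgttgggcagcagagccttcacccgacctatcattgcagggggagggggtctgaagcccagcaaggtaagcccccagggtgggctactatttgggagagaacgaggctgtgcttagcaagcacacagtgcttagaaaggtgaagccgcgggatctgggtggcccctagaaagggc
Hoxa2: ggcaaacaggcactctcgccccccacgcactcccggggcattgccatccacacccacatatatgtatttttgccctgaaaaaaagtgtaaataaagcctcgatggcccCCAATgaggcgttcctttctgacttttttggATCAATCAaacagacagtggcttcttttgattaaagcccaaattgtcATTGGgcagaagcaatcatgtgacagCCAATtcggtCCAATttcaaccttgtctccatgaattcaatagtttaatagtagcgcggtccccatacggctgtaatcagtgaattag
Hoxa5: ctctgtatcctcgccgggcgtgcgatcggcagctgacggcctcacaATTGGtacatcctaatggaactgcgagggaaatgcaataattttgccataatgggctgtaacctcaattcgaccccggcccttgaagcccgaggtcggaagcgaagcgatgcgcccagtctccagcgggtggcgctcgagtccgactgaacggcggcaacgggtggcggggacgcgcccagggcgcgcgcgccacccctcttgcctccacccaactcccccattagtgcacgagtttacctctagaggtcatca

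The Hoxa2 window held 4 CCAAT boxes and 1 Pbx-Hox sequence, the Hoxa5 window held 1 CCAAT box, and the Hoxa7 window held none of the 4 motifs searched. The table held 21 promoters of 19 members. A CCAAT box was in 12 of these 21 against 37.4% of all promoters, a GC box (GGGCGG) in 8 against 35.7%, a Pbx-Hox sequence in 3 against 8.85%, and a TATA box (TATAAA) in 2 against 13.6%. The windows of Hoxa7 and Hoxa2 each held 9 CpG dinucleotides and that of Hoxa5 held 29, where the median was 15 over the Hox promoters and 7 over all promoters. These matches describe letters in a window and were not tested for binding.

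Most Hox probe sets sat low on these arrays. Of the 33 genes, 3 were above the array median in all 48 arrays (Hoxa4, Hoxa5 and Hoxb3), against 34.7% of all probe sets. A further 14 passed the filter of at least 4 arrays above the median, so that 17 genes were tested, where 61.1% of all probe sets passed. In 13 genes 0 arrays were above the median, against 30.3% of all probe sets. This count places a probe set within its own array and does not rank the genes by RNA level, since probe sets differ in brightness. Here and for the other lists, genes are counted by their brightest probe set, while the background counts every probe set. Over all 48 probe sets of the 33 genes, 20 passed the filter.

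In the Hoxa cluster 8 of 9 genes passed. Hoxa4 and Hoxa5 were above the median in 48 arrays, Hoxa2 in 40, Hoxa3 in 38, Hoxa7 in 26, Hoxa9 in 17, Hoxa13 in 11 and Hoxa10 in 5, and Hoxa11 in 0. In the Hoxb cluster 4 of 9 passed. Hoxb3 was above the median in 48 arrays, Hoxb4 in 45, Hoxb13 in 34 and Hoxb6 in 9, while Hoxb2 reached 3, Hoxb1 reached 1, and Hoxb5, Hoxb7 and Hoxb9 reached 0. In the Hoxc cluster 3 of 7 passed, with Hoxc5 above the median in 46 arrays, Hoxc6 in 34 and Hoxc9 in 9. Hoxc4 reached 2, and Hoxc8, Hoxc10 and Hoxc13 reached 0. In the Hoxd cluster 2 of 8 passed, with Hoxd8 above the median in 35 arrays and Hoxd12 in 28, and Hoxd1, Hoxd3, Hoxd9, Hoxd10, Hoxd11 and Hoxd13 reached 0. By position along the clusters, 3 of 7 genes at positions 1 to 3 passed, 8 of 12 at positions 4 to 8 and 6 of 14 at positions 9 to 13.

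**Figure D1:**
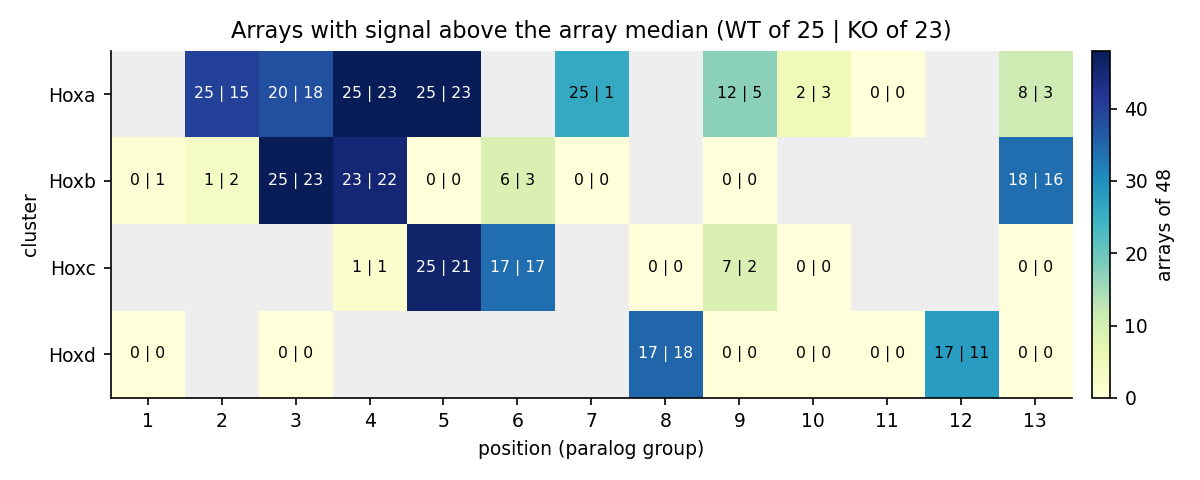
Number of arrays in which each Hox gene's brightest probe set lay above its array's median, by cluster (rows) and position (columns), with the colour for all 48 arrays and the numbers for WT of 25 and KO of 23. Grey fields have no gene or no probe set with that symbol alone. Hoxa7 was above the median in 25 WT arrays and 1 KO array, while Hoxa4, Hoxa5 and Hoxb3 were above it in all arrays of both lines.

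Whether the lines differed in Hox signal was asked at 0 min and over all times. Averaged over the 5 times, 6 of the 17 Hox genes tested were lower in KO, Hoxa7, Hoxa2, Hoxc5, Hoxa5, Hoxa9 and Hoxd12, and 2 were higher, Hoxb3 and Hoxb4 (limma, Benjamini-Hochberg adjusted p below 0.05 over 27500 probe sets). Of all probe sets tested 25.6% were lower and 27.3% higher, so the share of Hox genes called lower, 6 of 17, was not far from the background. The median difference of the 17 was -0.04 against -0.01 over all tested. Over all 33 genes without the filter, 6 were lower and 3 higher (Hoxb2 added), against 18.2% and 17.8% of all probe sets. The calls lay in different clusters: 4 of 8 tested Hoxa genes were lower and 0 higher, 0 of 4 Hoxb genes were lower and 2 higher, and 1 of 3 Hoxc and 1 of 2 Hoxd genes were lower. This difference between clusters was not tested. The arrays of 1 line and experiment come from the same day. With line and experiment as a random block, 3 Hox genes were lower (Hoxa7, Hoxa2 and Hoxc5; background 17.4%) and 1 higher (Hoxb3; background 21.1%), and with 1 mean per line and experiment the same genes were called, against 15.9% and 18.2%.

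**Figure D2:**
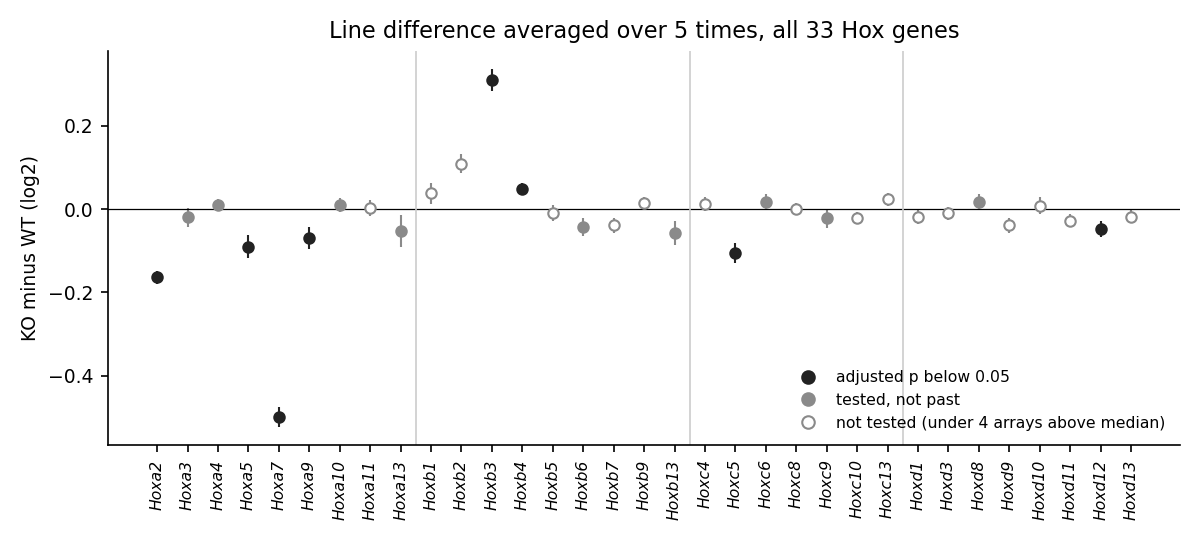
KO minus WT difference in log2 signal averaged over 5 times for all 33 Hox genes in cluster order, with bars for the standard error from the fit without a filter. Black points passed an adjusted p of 0.05 in the filtered fit, grey points were tested and did not pass, and open points had fewer than 4 arrays above the median and were not tested. Hoxa7 at -0.50 and Hoxb3 at 0.31 lie farthest from 0.

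Hoxa7, a gene of the middle of the Hoxa cluster that takes part in patterning of the trunk, was lower in every KO array than in any WT array. Over 25 WT arrays its log2 signal ran from 8.72 over a median of 8.86 to 9.10, and over 23 KO arrays from 8.27 over a median of 8.37 to 8.51. The lines did not overlap, as for 2.49% of all probe sets tested in this direction (and 2.4% with KO above WT). At 0 min the WT arrays read 8.81, 8.75, 9.02, 8.72 and 8.80 and the KO arrays 8.39, 8.51, 8.41 and 8.34. At 120 min the WT arrays read 9.05, 8.90, 9.05, 8.81 and 8.86 and the KO arrays 8.33, 8.33, 8.40, 8.34 and 8.50. All but 1 of the 23 KO arrays lay at or under their array's median. KO was below WT in 23 of 23 pairs of the same time and experiment, with differences from -0.75 to -0.23, and in all 5 experiments. The averaged difference was -0.50 (SE 0.02, limma adjusted p = 1.0e-22), or 1.41-fold on the deposited scale, and at 0 min it was -0.41 (SE 0.05, adjusted p = 8.8e-08). These p-values, like those of the genes below, take the arrays of 1 line and experiment as independent. Over 15 alternative fits the highest adjusted p of the averaged difference was 6.1e-07. Of all probe sets tested 3.89% had a larger averaged difference in either direction. After subtraction of each array's 5th percentile the averaged difference was -1.60, or 3.04-fold, so the fold depends on the treatment of the floor. In experiments 1 to 3, which stand apart from experiments 4 and 5 in the arrays' spread, it was -0.56, and in experiments 4 and 5 it was -0.42. Hoxa7 passed the filter through its WT arrays alone, with 25 of them and 1 KO array above the median.

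Hoxa2, a gene of the low-numbered end known for its part in the hindbrain and the second branchial arch, was also lower in KO. Its log2 signal ran from 8.60 over a median of 8.67 to 8.80 in WT and from 8.44 over a median of 8.52 to 8.61 in KO. At 0 min the WT arrays read 8.72, 8.80, 8.64, 8.66 and 8.69 and the KO arrays 8.53, 8.49, 8.52 and 8.52. At 120 min the WT arrays read 8.71, 8.69, 8.68, 8.69 and 8.64 and the KO arrays 8.44, 8.61, 8.46, 8.51 and 8.51. The lines overlapped slightly over all arrays but at none of the 5 times, and KO was below WT in 23 of 23 pairs. The averaged difference was -0.16 (SE 0.01, adjusted p = 3.7e-13), or 1.12-fold, and at 0 min it was -0.19 (SE 0.03, adjusted p = 3.2e-05). Over 15 alternative fits the highest adjusted p of the averaged difference was 5.4e-05. The call at 0 min was lost in 1 of 14 alternative fits (limma adjusted p = 0.0622). Within experiments 1 to 3 the average was -0.15 and within experiments 4 and 5 it was -0.18. With the array's 5th percentile subtracted it was -0.51. The KO arrays lay near the array median, and 15 of 23 were above it against 25 of 25 in WT.

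Hoxb3, a gene of the low-numbered end of the Hoxb cluster, was higher in KO. Its log2 signal ran from 8.69 over a median of 8.86 to 9.03 in WT and from 9.03 over a median of 9.18 to 9.32 in KO. At 0 min the WT arrays read 8.86, 8.91, 8.70, 8.91 and 9.02 and the KO arrays 9.15, 9.03, 9.28 and 9.10. At 120 min the WT arrays read 8.70, 8.69, 8.77, 8.88 and 9.03 and the KO arrays 9.18, 9.23, 9.09, 9.21 and 9.29. The lowest KO array, at 0 min, lay level with the highest WT array, at 120 min, and within each of the 5 times the lines did not overlap. KO was above WT in 23 of 23 pairs. The averaged difference was 0.31 (SE 0.03, adjusted p = 1.4e-13), or 1.24-fold, and of all probe sets tested 9.83% had a larger one. It was 0.35 within experiments 1 to 3, 0.25 within experiments 4 and 5, and 0.65 with the 5th percentile subtracted. Over 15 alternative fits the highest adjusted p of the averaged difference was 0.000226. At 0 min the difference was 0.26 (SE 0.06, adjusted p = 0.00132), a call lost in 2 of 14 alternative fits. Without experiment 3 it was 0.17 (adjusted p = 0.0809), and the highest adjusted p of the 14 was 0.316. A dimmer probe set of Hoxb3, above the median in 2 arrays and so not tested, read 8.18 in WT and 8.32 in KO on average (adjusted p = 1.1e-07 in the fit without a filter).

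Hoxc5, from the middle of the Hoxc cluster, was lower in KO by 0.11 on average (difference -0.11, SE 0.02, adjusted p = 0.000187), with overlap between the lines. At 0 min the WT arrays read 8.64, 8.61, 8.98, 8.66 and 8.79 and the KO arrays 8.63, 8.57, 8.64 and 8.79. At 120 min the WT arrays read 8.81, 8.82, 8.70, 8.64 and 8.66 and the KO arrays 8.57, 8.50, 8.62, 8.58 and 8.62. KO was below WT in 19 of 23 pairs. The difference lay in experiments 1 to 3 (-0.16), and in experiments 4 and 5 it was -0.01 (adjusted p = 0.828). With the 5th percentile subtracted it was -0.31. At 0 min it was -0.08 and did not pass (adjusted p = 0.347). The dimmer probe sets of Hoxc5 were above the median in 1 and 0 arrays and so not tested. In the fit without a filter they did not pass (limma adjusted p = 0.467 and 0.108).

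**Figure D3:**
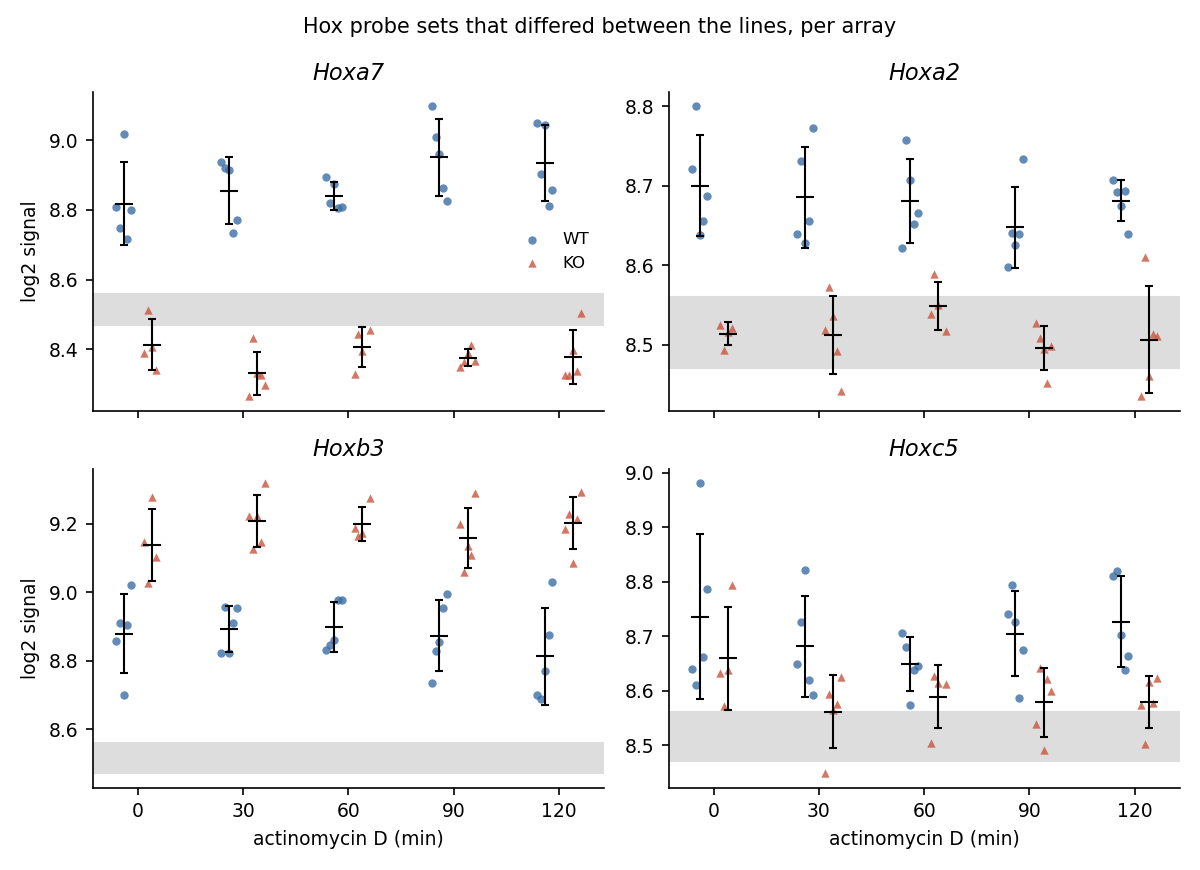
Log2 signal in each array against minutes of actinomycin D for Hoxa7, Hoxa2, Hoxb3 and Hoxc5, with WT as circles, KO as triangles, and black marks for the group mean ± SD (n = 5, or 4 for KO at 0 and 60 min). The grey band spans the array medians, 8.47 to 8.56. KO arrays lie below WT arrays at each time for Hoxa7 and Hoxa2 and above them for Hoxb3, and the lines overlap for Hoxc5.

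The remaining calls were small and lost under some of the alternatives. Hoxa5, a gene known for its part in lung and axial patterning, had an averaged difference of -0.09 (SE 0.03, adjusted p = 0.00506), with KO below WT in 17 of 23 pairs and an adjusted p of 0.0542 with the random block. That call was also lost without experiment 1 (-0.07, adjusted p = 0.0694) and without experiment 2 (-0.07, adjusted p = 0.0765). A dimmer tested probe set of Hoxa5, above the median in 14 arrays, differed by 0.02 and did not pass (limma adjusted p = 0.664). Hoxa9, a neighbour of Hoxa7 with a well-known part in blood progenitors, differed by -0.07 (adjusted p = 0.0249), with KO below WT in 16 of 23 pairs. Its WT arrays at 120 min read 8.91, 8.47, 8.78, 8.50 and 8.58 and its KO arrays 8.40, 8.36, 8.43, 8.40 and 8.50, and at 0 min the WT arrays read 8.41, 8.38, 8.64, 8.66 and 8.64 and the KO arrays 8.43, 8.38, 8.46 and 8.64. The spread of the WT arrays at 120 min was the widest of its groups, and the call was lost without experiment 1 (-0.06, adjusted p = 0.0706) and without experiment 3 (-0.05, adjusted p = 0.188). A dimmer tested probe set of Hoxa9, above the median in 7 arrays, differed by -0.009 and did not pass (limma adjusted p = 0.722). Hoxb4, a gene known for its part in blood stem cells, was higher in KO by 0.05 (adjusted p = 0.00475) and by 0.11 at 0 min (adjusted p = 0.00971). The first call was lost with the random block (adjusted p = 0.0822) and the second without experiment 3 (0.09, adjusted p = 0.0611). Its WT arrays at 0 min read 8.51, 8.49, 8.56, 8.55 and 8.61 and its KO arrays 8.63, 8.58, 8.75 and 8.67, and by 120 min the group means were 8.59 and 8.59. A dimmer probe set of Hoxb4, above the median in 0 arrays, did not pass in the fit without a filter (limma adjusted p = 0.967). Hoxd12, a gene of the limb end of its cluster, differed by -0.05 (adjusted p = 0.0346), with KO below WT in 18 of 23 pairs, and the call was lost without experiment 1, 3 or 4 (adjusted p = 0.17, 0.127 and 0.0621).

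The other 9 tested genes, Hoxa3, Hoxa4, Hoxa10, Hoxa13, Hoxb6, Hoxb13, Hoxc6, Hoxc9 and Hoxd8, did not pass in the averaged comparison. Their differences lay between -0.06 (Hoxb13) and 0.02 (Hoxd8). Hoxa4 was above the median in all 48 arrays and differed by 0.01 (SE 0.01, adjusted p = 0.628). At 0 min, Hoxa7 and Hoxa2 were lower in KO and Hoxb3 and Hoxb4 higher, 2 genes each of 17, against 11.9% and 13.4% of all probe sets.

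After actinomycin D a transcript that is not made anew is left to decay, and a slope (log2 signal per h) below 0 means that it fell against the rest of the array. Of the 17 genes 1, Hoxa5, fell in both lines by its brightest probe set, against 15.1% of all probe sets in WT and 12.3% in KO. Hoxa5 read 8.97, 8.95, 8.86, 9.11 and 9.06 in the WT arrays at 0 min and 8.65, 8.66, 8.56, 8.70 and 8.79 at 120 min. The KO arrays read 8.78, 8.70, 8.95 and 8.96 at 0 min and 8.53, 8.61, 8.57, 8.63 and 8.78 at 120 min. In WT no array at 120 min reached the lowest array at 0 min, and in both lines the signal fell in every experiment that had both times (5 of 5 in WT, 4 of 4 in KO). The slope was -0.15 per h in WT (SE 0.03, adjusted p = 9.4e-06) and -0.12 per h in KO (SE 0.03, adjusted p = 0.000336). Within experiments 1 to 3 the slopes were -0.14 in WT and -0.12 in KO, and within experiments 4 and 5 they were -0.16 in both. With the 5th percentile subtracted they were -0.38 and -0.33 per h. The WT group means went from 8.99 at 0 min through 8.86, 8.83 and 8.75 to 8.67, and the KO means from 8.85 through 8.82, 8.71 and 8.65 to 8.62. A dimmer probe set of Hoxa5, above the median in 14 arrays, did not fall (slope 0.01 per h in WT, adjusted p = 0.766), so the probe sets of this gene disagree. A dimmer tested probe set of Hoxa3, above the median in 20 arrays, fell in both lines. Its slopes were -0.05 per h in WT (limma adjusted p = 0.0339) and -0.07 per h in KO (adjusted p = 0.00223). The brightest probe set of Hoxa3 did not fall, with slopes of 0.05 per h in WT and 0.004 per h in KO.

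Hoxb2, the neighbour of Hoxb3 at the low-numbered end, was above the median in 3 arrays, all at 0 min, and was not tested with the filter. Its WT arrays read 8.53, 8.47, 8.19, 8.34 and 8.36 at 0 min and 8.10, 8.06, 8.03, 8.13 and 8.06 at 120 min. Its KO arrays read 8.61, 8.36, 8.56 and 8.36 at 0 min and 8.15, 8.21, 8.22, 8.18 and 8.21 at 120 min. The groups at 0 and 120 min did not overlap in either line. In the fit without a filter its slope was -0.16 per h in WT (SE 0.02, adjusted p = 2.5e-07) and -0.15 per h in KO (SE 0.02, adjusted p = 9.2e-06), against 9.44% and 7.82% of all probe sets that fell. At 120 min its WT values lay within the range of the arrays' 5th percentiles, so the fall has no measured end there. Its averaged line difference in that fit was 0.11 (SE 0.02, adjusted p = 0.000123), with KO above WT in 21 of 23 pairs. Hoxb1 also passed in KO in the fit without a filter (-0.07 per h, adjusted p = 0.0492), where 1 array at 0 min read 8.73 and the other KO arrays at 0 min lay between 8.13 and 8.27, within or near the WT range of 8.11 to 8.27.

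**Figure D4:**
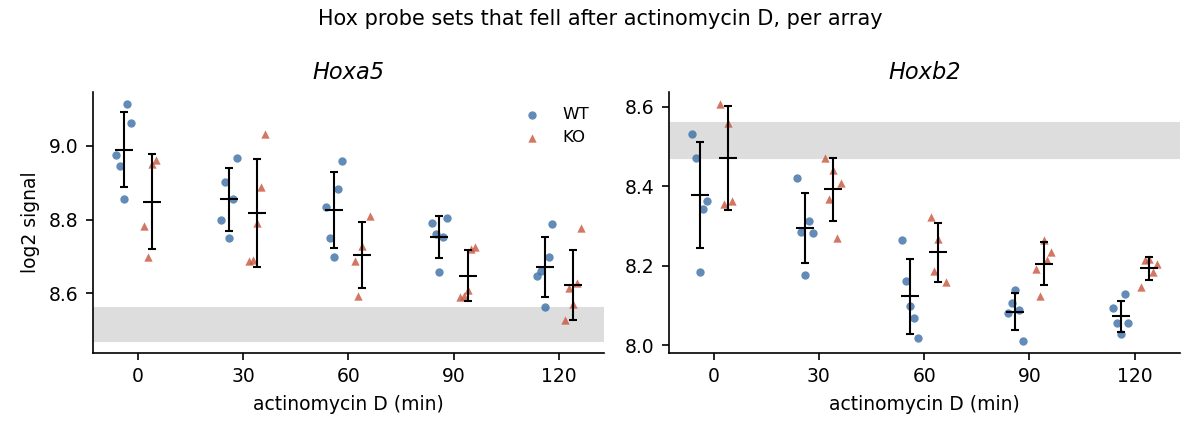
Log2 signal in each array against minutes of actinomycin D for Hoxa5 and Hoxb2, with WT as circles, KO as triangles and black marks for the group mean ± SD (n = 5, or 4 for KO at 0 and 60 min). The grey band spans the array medians. Both probe sets went down with time in both lines, Hoxa5 by 0.15 and Hoxb2 by 0.16 log2 per h in WT.

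In WT, Hoxa7 and Hoxc9 had slopes above 0 that passed, 2 of 17 genes against 13.9% of all probe sets. The WT slope of Hoxa7 was 0.07 per h (SE 0.02, adjusted p = 0.0256), and that of Hoxc9 was 0.06 per h (SE 0.02, adjusted p = 0.0458). Like Hoxa7, Hoxc9 passed the filter through WT, with 7 WT and 2 KO arrays above the median. Both calls therefore rest on the line that let the gene pass. In KO 0 of 17 slopes above 0 passed, against 15.0% of all probe sets, and 0 did at an unadjusted p of 0.05, against 21.1%. The Hoxa7 call was lost when the 5th percentile was subtracted (adjusted p = 0.185) and without the arrays at 0 min (adjusted p = 0.13), and without experiment 1, 2 or 4 (adjusted p = 0.139, 0.078 and 0.0541). The slope of Hoxc9 was -0.01 per h in experiments 4 and 5, and its call was lost without experiment 1, 2 or 5 (adjusted p = 0.318, 0.413 and 0.0507). At 120 min the WT arrays of experiments 1 and 3 had the highest medians of their group, 8.547 and 8.539. The same arrays held the group's highest values of Hoxa7 (9.051 and 9.045) and Hoxc9 (8.635 and 8.712). The part of these medians in the 2 calls was not tested. These signals are relative to the array, so a slope above 0 is a rise against the other probe sets and not a measured rise of RNA.

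The slopes of the lines were also set against each other. In 0 of 17 Hox genes did the slope difference pass with limma, against 0.785% of all probe sets above 0 and 0.251% below. At an unadjusted p of 0.05, 2 lay below 0 and 0 above, against 3.37% and 5.21% of all probe sets, and the lowest adjusted p was 0.406. The differences ran from -0.07 to 0.04 log2 per h. For Hoxa5 the difference was not resolved (adjusted p = 0.902). The line differences of Hoxa7, Hoxa2 and Hoxb3 were present at 0 min and at 120 min alike, with group mean differences from -0.58 to -0.41 for Hoxa7, from -0.19 to -0.13 for Hoxa2 and from 0.26 to 0.39 for Hoxb3 over the 5 times.

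Other probe sets from the clusters carried the symbol of an antisense RNA or of several genes and lie outside the members. Hoxa11os, an antisense RNA of Hoxa11, was above the median in 48 arrays in its brighter probe set and averaged 8.89 in WT and 8.77 in KO (difference -0.11, SE 0.02, adjusted p = 1.4e-06), while Hoxa11 itself was above the median in 0 arrays. The dimmer probe set of Hoxa11os was above the median in 0 arrays too, and averaged 8.279 in WT and 8.285 in KO. In the fit without a filter it did not pass (limma adjusted p = 0.8), so the probe sets of Hoxa11os disagree. A probe set shared by Hoxb8 and Hoxb7 averaged 8.42 in WT and 8.28 in KO, lower by a difference of -0.15 (adjusted p = 8.2e-05), and which gene it reads cannot be told apart. This probe set was above the median in only 5 arrays, and both line means lay under the lowest array median of 8.47. At 0 min its difference was -0.10 and did not pass (limma adjusted p = 0.336). Hoxb7's own probe set was above the median in 0 arrays. Beside the clusters, the nearest tested genes in RefSeq order were read for comparison. Next to the Hoxa cluster, Snx10 (-0.24) and Hibadh (-0.33) were lower in KO and Skap2 (0.17) and Tax1bp1 (0.07) higher. Next to the Hoxb cluster Ube2z was higher (0.05) and Snx11 lower (-0.10), and Atp5g1 and Skap1 did not pass. Next to the Hoxc cluster Atp5g2 (-0.16) and Cbx5 (-0.16) were lower and Calcoco1 and Smug1 did not pass, and next to the Hoxd cluster Atp5g3 (-0.08) and Mtx2 (-0.08) were lower and Lnpk and Nfe2l2 did not pass. With 1 mean per line and experiment the calls of Skap2, Tax1bp1, Ube2z, Atp5g3 and Mtx2 were lost (adjusted p = 0.054, 0.264, 0.313, 0.17 and 0.401).

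The TALE cofactors, which bind DNA with Hox proteins, differed between the lines in both directions. Averaged over the times, 2 of 8 tested were higher in KO and 5 lower, against 27.3% and 25.6% of all probe sets, and the median difference was -0.11. Meis2 read 9.95 ± 0.26 (SD, n = 25) in WT and 9.14 ± 0.20 (SD, n = 23) in KO, a difference of -0.81 (SE 0.04, adjusted p = 2.8e-20). Meis1 read 8.83 ± 0.16 (SD, n = 25) in WT and 9.38 ± 0.28 (SD, n = 23) in KO, a difference of 0.56 (SE 0.03, adjusted p = 9.1e-23). The paralogs Meis1 and Meis2 thus differed in opposite directions. Pbx3 (-0.43), Pknox2 (-0.28) and Meis3 (-0.14) were lower and Pbx2 (0.17) higher. Pknox2 passed the filter through WT alone, with 4 WT arrays and 0 KO arrays above the median, so its call rests on the line that let it pass. Pknox1 (-0.09) was called lower too, a call lost with the random block (adjusted p = 0.144). Meis1, Meis2, Pbx2 and Pbx3 fell after actinomycin D in both lines, 4 of the 8 genes, against 15.1% of all probe sets in WT and 12.3% in KO, with WT slopes of -0.20, -0.28, -0.10 and -0.12 per h and KO slopes of -0.35, -0.19, -0.09 and -0.19 per h, and in 0 of the 8 did the slope difference pass.

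Of the Polycomb genes, whose complexes keep Hox genes silent, 10 of 21 tested were higher in KO and 6 lower, with a median difference of 0.07, where 27.3% and 25.6% of all probe sets were called and the share of lower genes is close to that. Ezh2 (0.25), the methyltransferase of the second Polycomb complex, Mtf2 (0.24), Phc1 (0.20) and Phf1 (0.15) were higher. Rnf2 (-0.27), the ubiquitin ligase of the first complex, Rbbp7 (-0.21), Bmi1 (-0.15) and Rbbp4 (-0.11) were lower. Of the MLL complex genes and the demethylases that remove the Polycomb mark, 5 of 12 were higher and 3 lower, against the same 27.3% and 25.6%, with the share of lower genes at the background. Ash2l, a core subunit of MLL complexes, read 9.43 ± 0.09 (SD, n = 25) in WT and 10.26 ± 0.12 (SD, n = 23) in KO, a difference of 0.83 (SE 0.03, adjusted p = 5.3e-28). Mllt1 (0.45), a subunit of elongation complexes, Dot1l (0.15) and Men1 (0.14) were higher too, Mllt1 having passed the filter through KO alone (23 KO and 0 WT arrays above the median), while Dpy30 (-0.12), Kdm6a (-0.10) and Kmt2a (-0.09) were lower. With 1 mean per line and experiment the calls of Mtf2, Dot1l, Dpy30 and Kmt2a were lost (adjusted p = 0.0505, 0.134, 0.249 and 0.183), and with the random block that of Kdm6a was lost (adjusted p = 0.232). The demethylase gene Kdm6b did not differ past the threshold (-0.05) and fell in both lines, by 0.40 per h in WT and 0.46 per h in KO.

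Of the retinoic acid genes 3 of 9 tested were higher and 3 lower, near the 27.3% and 25.6% of all probe sets. The receptor genes Rarg (0.18) and Rxrb (0.15) and the synthesis gene Aldh1a3 (0.08) were higher. Cyp26b1, which breaks retinoic acid down, was lower (-0.48, SE 0.06), as were the synthesis gene Aldh1a1 (-0.43, SE 0.03) and the receptor gene Rxra (-0.16). Aldh1a1 passed the filter through WT alone (12 WT and 0 KO arrays above the median) and Aldh1a3 through KO alone (15 KO and 0 WT arrays). Of the ParaHox, Evx and other homeobox genes linked to the clusters, 4 of 12 passed the filter, against 61.1% of all probe sets. Of these 4, 0 were called by limma, against 27.3% higher and 25.6% lower. Of the other positional transcription factors of mesenchyme, 7 of 24 were higher and 5 lower, near the 27.3% and 25.6% of all probe sets. Foxf1 (0.76), Tbx3 (0.67), Prrx1 (0.51) and Twist1 (0.41) were higher, and Irx3 (-1.15), Prrx2 (-0.38), Irx5 (-0.15) and Emx2 (-0.09) were lower. Irx3 passed the filter through WT alone (25 WT and 0 KO arrays above the median), and Emx2 had 11 WT and 2 KO arrays above it. The slope difference passed in 7 of these 24, against 0.785% of all probe sets above 0 and 0.251% below, where it passed in 0 of 17 Hox genes, and the difference between the lists was not tested.

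**Figure D5:**
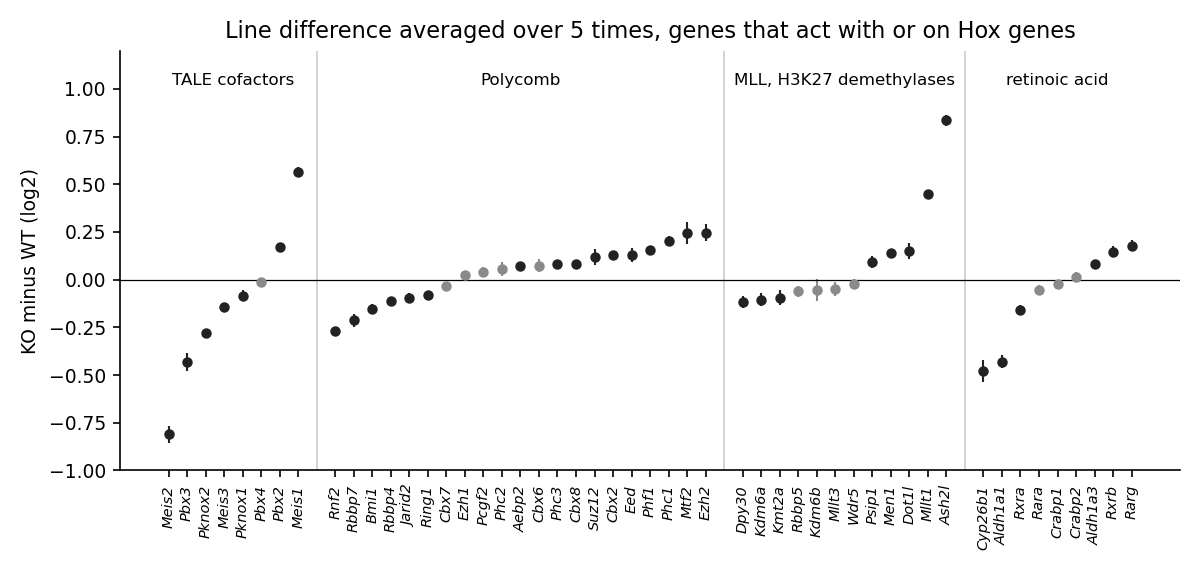
KO minus WT difference in log2 signal averaged over 5 times (points) with its standard error (bars) for tested genes of the TALE cofactors, Polycomb, MLL complexes with demethylases, and retinoic acid, ordered by size within each list. Black points passed an adjusted p of 0.05 and grey points did not. Ash2l at 0.83 and Meis2 at -0.81 lie at the ends.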

How the data were processed

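The deposited values are log2 signals, 1 per probe set and array, as the authors gave them. Per the labels, biotin-labelled cRNA was read on Affymetrix Mouse Genome 2.0 arrays. Summarisation and normalisation were not given in the sources used here. The base of the logarithm was read from the values' range. The scaling was kept. Of 45101 probe sets 64 controls were left out, and 27500 were tested, those with 4 or more arrays above the array median.

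Fits used limma 3.58.1 in R 4.3.3 over all 48 arrays with empirical Bayes (intensity trend, robust). One fit had a mean per group of line and time, the other an intercept and slope per line. Tests were two-sided at a Benjamini-Hochberg adjusted p of 0.05 over all probe sets tested, and the code was tested on simulated data. The number of arrays limits the precision.

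The series text runs both lines side by side in each numbered experiment. Deviations from group means correlated between same-numbered WT and KO samples (0.383, 0.338, 0.12, 0.327 and 0.604). In experiments 3 and 4 the WT deviations correlated more with KO samples of another number. The pairing of the lines by experiment therefore rests on the series text. The first principal component of these deviations, 33.9% of their variance, separated experiments 1 to 3 from 4 and 5, and both were also fitted alone. Alternatives were the experiment as a block, line and experiment as a random block, 1 mean per line and experiment, each experiment left out, other filters, quantile normalization and subtraction of the array's 5th percentile. For that subtraction linear signals were floored at 32.

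Members and lists were chosen with earlier results of these data known. Every Hox gene is named, with array values for up to 5 members each way with the largest averaged line difference past the threshold and up to 4 with the most negative slopes. Hoxb1, Hoxb2 and Hoxc9 are named for calls outside that rule. From each other list up to 4 genes each way are named by their averaged difference, with 2 flanking genes on each side of a cluster. Pknox1 and Kdm6b were named after their values were seen. Promoters and gene order come from RefSeq.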

Additional observations from a re-analysis of the deposited data

Results flagged for a closer look

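Among 90 groups of 4 or 5 arrays of 9 Hox genes, 3 held an array far from the others of its group, where chance gives about 1 in 20. Hoxb4 read 8.464 in WT experiment 2 at 30 min, where the other arrays lay between 8.534 and 8.559. Hoxc5 read 8.503 in KO experiment 1 at 60 min, where the others lay between 8.612 and 8.627. Hoxd12 read 8.756 in WT experiment 3 at 0 min, where the others lay between 8.478 and 8.526. That array had the highest median of all arrays, 8.56. It was also the highest of its group for Hoxa7 (9.019), Hoxc5 (8.98) and Hoxc9 (8.662). For Hoxa2 (8.638), Hoxa5 (8.855) and Hoxb3 (8.701) it was the lowest. The part of the array's higher median in these values was not tested. The Hoxd12 call of lower signal in KO was lost without experiment 3, with a difference of -0.03 (adjusted p = 0.127).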

How the results depend on the processing

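Over the alternatives run, the averaged line differences of Hoxa7, Hoxa2 and Hoxb3 and the falls of Hoxa5 in both lines kept direction and call. With the experiments paired as a replicate block, 7 Hox genes were lower and 2 higher on average (Hoxb13 added), 3 lower and 3 higher at 0 min, and no other count of Hox genes changed. At 0 min, 2 lower and 2 higher genes became 1 and 0 in experiments 4 and 5, where 9.27% and 10.3% of all probe sets were called. The averaged count of 6 lower became 3 in experiments 4 and 5, with the random block and with 1 mean per line and experiment, and the count of 2 higher became 1 in experiments 1 to 3, with the random block and with 1 mean per line and experiment. Of all probe sets 23.4% were lower in experiments 4 and 5 and 25.2% higher in experiments 1 to 3. The count falling in WT, 1, became 2 without the filter and with any probe set of a gene, and that in KO, 1, became 3 without the filter and 2 with the random block and with any probe set. Of all probe sets 9.44% fell in WT and 7.82% in KO without the filter, and 15.1% in KO with the random block. The count rising in WT, 2, became 1 without the filter, with the stricter filter and without the arrays at 0 min, and 0 with background subtracted. The shares of all probe sets rising in WT were 8.49%, 16.6%, 4.46% and 10.9% in that order. With each experiment left out in turn the counts ranged from 2 to 3 (lower at 0 min), 1 to 3 (higher at 0 min), 3 to 7 (lower on average), 0 to 5 (rising in WT) and 0 to 1 (rising in KO). Of all probe sets 8.55% to 11.6% were then lower and 10.5% to 13% higher at 0 min. On average 22% to 24.9% were lower, and 9.69% to 15.4% rose in WT and 9.68% to 15% in KO. Without experiment 1 only Hoxa7, Hoxa2 and Hoxc5 were lower on average, without experiment 3 Hoxa3 alone was higher at 0 min, and without experiment 3 Hoxc6 rose in KO. Reversed signs were found for Hoxc9 (WT slope -0.0051), Aebp2 (-0.0115) and Skap2 (-0.0309) in experiments 4 and 5, and for the slope difference of Tbx3 with background subtracted (0.0111). Of 1233 single-gene checks, 1097 kept direction and call and 132 lost the call. The causes were not tested. Signals near the array floor limit what can be seen of the 16 genes not tested.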
